A study of Mus musculus with 27 samples.

Results

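The insulin-like growth factor (IGF) genes were examined in sorted Prx1-tdTomato cells of mouse muscle, periosteum and bone marrow. The members were taken by gene symbol and not by their values. They were the ligands Igf1 and Igf2, the receptors Igf1r and Igf2r, and the binding proteins Igfbp2, Igfbp3, Igfbp4, Igfbp5, Igfbp6 and Igfbp7, 10 of the 30153 genes in the table. All 10 were among the 18442 genes that reached a normalized count of 10 in at least 3 libraries. For Igfbp2 this rested on 8 of the 27 libraries, and it was listed at 0 in 10 others.

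IGF1 and IGF2 are secreted growth factors that act through the tyrosine kinase receptor IGF1R, which feeds the PI3K and AKT and the MAP kinase routes. IGF2R carries IGF2 into the cell for breakdown and also sorts lysosomal enzymes. The binding proteins hold the ligands outside the cell, prolong their life or keep them from the receptor, and proteases such as PAPP-A set them free. In the skeleton IGFs are made by osteoblasts and stored in bone matrix with binding proteins, and in muscle they take part in growth and repair.

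All cells came from the hindlimbs of Prx1-CreER/Ai14/Rag1 mice, males and females of 8 to 12 weeks, in which the Prx1 promoter drives CreER-EGFP, the Ai14 allele gives tdTomato after recombination, and Rag1 is mutated. Every group carried these alleles and had received 2 tamoxifen injections, with harvest 3 days after the last, and no unlabeled or untreated group was analysed here. The label marks cells that used the Prx1 promoter at that time and their descendants. After CD45+ cells were excluded, 3 subpopulations were sorted in each tissue. P1 and P2 lacked CD105 and were split by CD200, which P1 carried and P2 did not, and P3 carried CD105 with any level of CD200. The digestion took 60 minutes for muscle but 20 minutes for periosteum, and marrow was flushed out without one. Each of the 9 groups had 3 libraries. The submitters wrote that the tissues came from the same animals but not which animal gave which library, so p-values measure the spread between these libraries, which may be partly technical.

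The table holds normalized counts, which summed to between 8631881 and 26230908 per library, and the raw depth is unknown. Eng, which encodes CD105, had its highest mean in P3 of every tissue, and Cd200 its lowest in P2. Ptprc, which encodes CD45, had group means of 172.6 to 610.4 normalized counts in bone marrow and of at most 81.3 in the other tissues. Prrx1, the gene whose promoter drives the label, had mean normalized counts of 818 to 2879 in the other groups but of 110.1 in bone marrow P2 and 335 in bone marrow P3. Its mean of 914 in periosteum P2 rested on replicate 1, at 2377 against 64.0 and 301.5. Globin transcripts took 24.06 to 38.56% of the total in the P2 cells of periosteum, 44.16 to 47.32% in those of marrow and at most 4.28% in the other groups. The 12 myofibre markers had a mean level of 15.3 to 15.98 on the log2 scale in muscle P2. No level in a sorted fraction can tell fewer cells of a type from less RNA per cell. Among replicates, the 3 libraries of periosteum P2 were least alike, with Pearson's r across genes of 0.631 to 0.672. Bone marrow P3 replicate 1 was the highest of its group for 8 of the 9 members other than Igfbp2, and periosteum P1 replicate 1 for 7 of 9. These libraries also had the most Prrx1 of their groups, 724.9 against 132.3 and 147.5, and 4577.6 against 1515.7 and 2544.1. Results that rest on one of them are given without it.

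Of the 6 binding proteins 4 were more abundant than the ligands and receptors. Per kilobase of exon, the mean normalized count over the 27 libraries was 6421 for Igfbp6, 2257 for Igfbp4, 1513 for Igfbp7 and 1162 for Igfbp5. These means pool the tissues, and Igfbp6 did not lead in bone marrow, where its normalized count was at most 15.7 in any library. On the same per-kilobase scale Igf1 had a mean of 268, Igfbp3 of 137, Igf2 of 108, Igf2r of 77.4, Igf1r of 13.6 and Igfbp2 of 12.1. Summed binding protein level per kilobase exceeded the summed ligand level in every library, with a median ratio per group between 16.36 in periosteum P1 and 103.1 in periosteum P2.

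**Figure D1:**
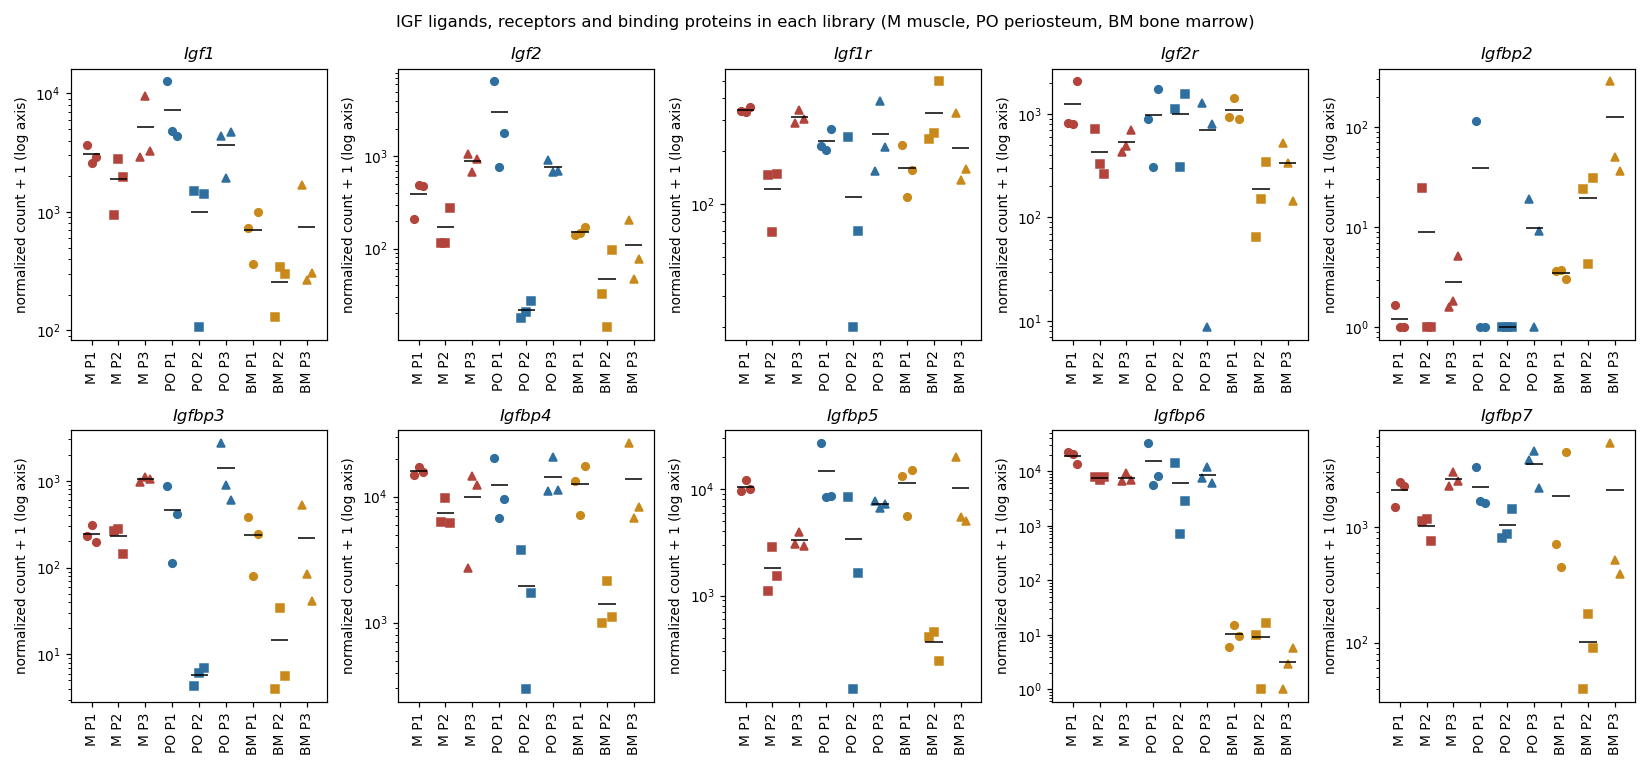
Normalized count + 1 on a log axis for each of the 10 genes (1 point per library, 3 per group, bar at the group mean), by tissue (M muscle, PO periosteum, BM bone marrow) and subpopulation. Igfbp6 lies between 708 and 33228 in the 18 muscle and periosteum libraries and at or under 15.7 in the 9 bone marrow libraries. Igfbp3 has its lowest group mean in periosteum P2, whose libraries overlap those of bone marrow P2.

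Igfbp6, a binding protein that prefers IGF2, separated bone marrow from the other tissues. Its gene lies on chromosome 15 at 102144362 to 102149511, plus strand (GRCm38, GENCODE M21). Igfbp4 and Igfbp5, by contrast, were high in all 3 tissues and differed between subpopulations. Igfbp4, an inhibitor of IGF action that PAPP-A cleaves, lies on chromosome 11 at 99041244 to 99054392, plus strand. Igfbp5, a binding protein of bone matrix, lies on chromosome 1 at 72857932 to 72874884, minus strand, next to Igfbp2 at 72824503 to 72852474 on the plus strand. The 250 bases before the RefSeq start of these 3 genes (GRCm38.p6) are printed 5′ to 3′ on the strand of the gene, Igfbp6 for its difference between tissues and the other pair as the binding proteins whose group means ran most closely together. They are chr15:102143936-102144185, plus strand, for Igfbp6, chr11:99040994-99041243, plus strand, for Igfbp4, and chr1:72874866-72875115, minus strand, for Igfbp5. For Igfbp6 the RefSeq start lies before the GENCODE start, and the end of the Igfbp5 window reaches into the first GENCODE exon. Capitals mark matches to TATAAA or CCAAT on either strand, and GGGCGG was searched too.
Igfbp6: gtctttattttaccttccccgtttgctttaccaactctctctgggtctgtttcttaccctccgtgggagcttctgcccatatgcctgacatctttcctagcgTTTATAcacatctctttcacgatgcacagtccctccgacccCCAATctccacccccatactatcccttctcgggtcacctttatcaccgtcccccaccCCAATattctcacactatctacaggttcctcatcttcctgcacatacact
Igfbp4: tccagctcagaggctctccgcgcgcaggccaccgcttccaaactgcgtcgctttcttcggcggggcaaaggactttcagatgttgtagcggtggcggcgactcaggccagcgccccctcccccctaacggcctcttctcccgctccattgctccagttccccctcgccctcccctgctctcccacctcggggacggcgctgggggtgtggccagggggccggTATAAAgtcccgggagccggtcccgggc
Igfbp5: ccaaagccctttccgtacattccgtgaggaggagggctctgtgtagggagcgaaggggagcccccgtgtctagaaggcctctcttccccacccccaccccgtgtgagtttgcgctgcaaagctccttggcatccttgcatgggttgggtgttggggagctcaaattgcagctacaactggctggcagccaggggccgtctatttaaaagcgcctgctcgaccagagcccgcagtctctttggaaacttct
The Igfbp6 window had 49.6% G and C, 7 CpG, 1 TATAAA on the other strand and 2 CCAAT. The Igfbp4 window had 69.2% G and C, 22 CpG and 1 TATAAA on its own strand, and the Igfbp5 window had 58.8%, 10 CpG and no match. Of 32851 RefSeq windows of this length, 12.4% held TATAAA, 32.7% GGGCGG and 33.8% CCAAT, on either strand, and the medians were 52.4% G and C and 6 CpG. Matches to different motifs did not overlap in the 3 printed windows. A match is a string of letters and not a bound site.

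The tissue comparisons, each averaged over P1, P2 and P3, asked how the labeled cells of the 3 tissues differ. In these tests a change was called when limma's adjusted p over all 18442 genes was under 0.05 and the log2 fold change of the normalized count + 1 exceeded 1.5 in size, the study's own thresholds. In muscle against bone marrow 6 of the 10 members were called, 5 higher and 1 lower, where 21.7% of all genes were called (10.9% higher and 10.8% lower). In periosteum against bone marrow 5 were called, 4 higher and 1 lower, against 20.8% of all genes (4.01% higher and 16.8% lower). Between muscle and periosteum 1 was called, higher in muscle, against 20.4% of all genes (17.2% higher). The members' median log2 fold change was 1.34 for muscle against bone marrow, where the median of all genes was -0.10. It was 0.87 against -0.69 for periosteum against bone marrow, and 0.27 against 0.56 for muscle against periosteum.

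Igfbp6 had normalized counts of 22145, 20716 and 13638 in muscle P1, of 7851, 6954 and 7889 in muscle P2 and of 6508, 9367 and 7025 in muscle P3. In periosteum it had 33228, 5536 and 8162 in P1, 14408, 708 and 2882 in P2, and 7536, 12133 and 6051 in P3. The marrow libraries held 5.04, 14.1 and 8.45 in P1, 8.84, 0 and 15.7 in P2, and 0, 1.88 and 4.62 in P3. No muscle or periosteum library came near the marrow range, whatever the subpopulation. The log2 fold change against bone marrow was 10.96 ± 0.54 (SE) for muscle and 10.35 ± 0.54 for periosteum, with adjusted p from limma of 4.2e-13 and 1.5e-12. Because the marrow values lie near the pseudocount of 1, the size depends on it: over the settings tried it ranged from 9.96 to 11.87 for muscle and from 9.34 to 11.25 for periosteum. Muscle and periosteum overlapped and differed by 0.62 ± 0.54 (adjusted p = 0.42). The 10 fibro-adipogenic markers, genes of connective tissue progenitors, ran in the same order, with mean log2 levels of 12.54 to 13.3 in muscle groups, 10.16 to 11.32 in periosteum and 5.9 to 6.2 in bone marrow. The 12 leukocyte markers ran the other way, at 8.89 to 11.06 in marrow groups and at most 5.91 elsewhere. Their part in the difference was not tested.

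Igf1 was also higher outside bone marrow. Muscle held 3674, 2584 and 2918 normalized counts in P1, 940.2, 2777 and 1957 in P2, and 2920.5, 9491 and 3246 in P3. Periosteum held 12769.8, 4779 and 4391 in P1, 1493, 105 and 1409.8 in P2, and 4343, 1951 and 4683 in P3. Bone marrow held 732, 359.5 and 1007 in P1, 129, 339 and 300.0 in P2, and 1683, 266 and 303 in P3. Within each subpopulation the marrow libraries lay below those of muscle and periosteum, except that periosteum P2 replicate 2 fell under all 3 marrow P2 libraries. The log2 fold change was 2.74 ± 0.47 for muscle (adjusted p = 9.0e-05) and 2.47 ± 0.47 for periosteum (adjusted p = 0.00048) against bone marrow.

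Igf2, the growth factor best known from fetal growth, is imprinted and lies on chromosome 7 at 142650766 to 142666816, minus strand. Its normalized counts in muscle were 209, 486 and 469.6 in P1, 114, 115 and 277 in P2, and 1051, 682 and 936 in P3. Those in periosteum were 6559.7, 769 and 1800.0 in P1, 16.6, 19.7 and 26.2 in P2, and 912, 674 and 699.6 in P3. Those in bone marrow were 139, 145 and 169.8 in P1, 30.8, 13.0 and 95.1 in P2, and 202, 46.0 and 76.1 in P3. The periosteum thus held both the highest and nearly the lowest values of this gene, and its 3 P2 libraries lay within the marrow range. Igf2 was higher by 2.23 ± 0.45 in muscle (adjusted p = 0.00049) and by 2.05 ± 0.45 in periosteum (adjusted p = 0.0017) than in bone marrow. The ratio of Igf1 to Igf2 per kilobase was above 1 in all 27 libraries, with a median of 1.41 in periosteum P1 and of 31.1 in periosteum P2. With P2 left out of all tissues, an alternative chosen after the data were seen, Igf1, Igf2 and Igfbp6 stayed called against bone marrow for both tissues.

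Igfbp7, a secreted protein of the vessel wall and connective tissue with low affinity for IGFs, was also higher outside bone marrow. Igfbp3, the main IGF carrier of serum, was higher in muscle than in either other tissue as an average over P1, P2 and P3. Its muscle libraries lay above those of bone marrow without overlap in P2 and in P3, while the P1 means were 245 and 234. Against periosteum, Igfbp3 was higher in muscle only in P2. Its group means in P1 and P3 were higher in periosteum, at 465 and 1416, than in muscle, at 245 and 1039. Igfbp7 had 1492, 2458 and 2269 normalized counts in muscle P1, 3284, 1693 and 1613 in periosteum P1, and 714, 445 and 4419 in bone marrow P1. In P2 it had 1124, 1166 and 752 in muscle, 801, 869 and 1432 in periosteum, and 38.4, 177 and 88.2 in marrow. In P3 it had 2269.7, 2985 and 2513, then 3809, 4559 and 2158, and then 5349, 522 and 390.0 in the same order of tissues. The 3 marrow P2 libraries lay below all others, while 1 library each of marrow P1 and P3 was as high as the other tissues. Igfbp7 was higher than in bone marrow by 1.91 ± 0.45 in muscle (adjusted p = 0.0023) and by 2.05 ± 0.45 in periosteum (adjusted p = 0.0018), and without P2 by 1.09 and 1.30, neither past the test (adjusted p = 0.24 and 0.16). Exons of Igfbp7 overlap Polr2b on the opposite strand, and the library kit keeps no strand, so reads from the overlap cannot be told apart.

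For Igfbp3 the contrast of muscle with bone marrow was 2.67 ± 0.56 (adjusted p = 0.00072), and 1.70 without P2 (adjusted p = 0.072). It was the only member called between muscle and periosteum, at 1.54 ± 0.56 (adjusted p = 0.046). That call rested on P2, where muscle had 266, 279 and 141 and periosteum 3.30, 5.08 and 5.97. Without P2 the difference turned to -0.33 (adjusted p = 0.76), and leaving out single libraries ended the call in 17 of 27 cases (adjusted p from 0.026 to 0.097).

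Igfbp2, which binds both ligands, was the 1 member higher in bone marrow. In marrow it had 2.64, 2.76 and 2.02 normalized counts in P1, 22.8, 3.29 and 29.9 in P2, and 287, 49.6 and 35.7 in P3. Of the 18 other libraries 10 were listed at 0, and the highest were 113 in periosteum P1 replicate 1 and 23.7 in muscle P2 replicate 1. Muscle was lower than marrow by a log2 fold change of -2.97 ± 0.87 (adjusted p = 0.012) and periosteum by -2.42 ± 0.87 (adjusted p = 0.043). The periosteum call ended in 17 of the 27 cases with 1 library left out (adjusted p up to 0.097), and with P2 left out (-1.69, adjusted p = 0.31). Values this low allow no firm size.

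**Figure D2:**
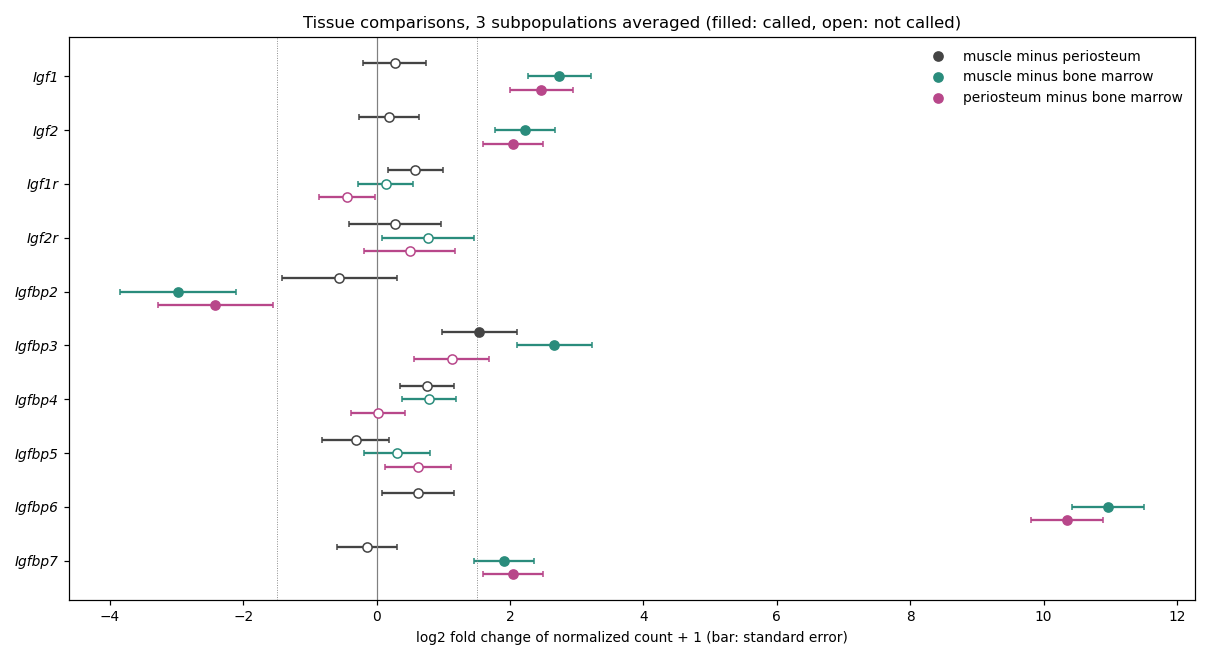
Log2 fold change of the normalized count + 1 between tissues with its standard error for the 10 genes, averaged over P1, P2 and P3 (filled points called, open points not, dotted lines at a size of 1.5). Igfbp6 stands at 10.96 and 10.35 against bone marrow, Igf1, Igf2 and Igfbp7 at about the same size for both tissues, and Igfbp2 on the negative side.

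The receptors did not pass the test in any of the 16 comparisons on the normalized counts as deposited with all 27 libraries in the fit. Other settings gave some receptor calls, all higher. Igf2r was called for P1 in bone marrow with these groups fitted alone (2.34, adjusted p = 0.0095), with quantile normalization (2.46, adjusted p = 0.031) and without periosteum P3 replicate 2 (adjusted p = 0.0090). Over all tissues it was called for P1 in 3 cases with 1 periosteum library left out (1.68 to 1.74). Igf1r was called for P3 against P2 in periosteum with equal totals (2.52, adjusted p = 0.026) and without periosteum P2 replicate 1 (2.64, adjusted p = 0.0080). Igf1r, the signalling receptor (chromosome 7, 67952827 to 68233668, plus strand), had group means between 109.5 in periosteum P2 and 342 in muscle P1, and the libraries of every pair of neighbours in that order overlapped. Igf2r (chromosome 17, 12682406 to 12769664, minus strand) had group means between 186 in bone marrow P2 and 1237 in muscle P1, again with all neighbours overlapping. The spread within groups was wide for Igf2r, as in periosteum P3 with 1271, 7.65 and 799. Their log2 fold changes between tissues were 0.58 ± 0.42, 0.14 ± 0.42 and -0.45 ± 0.42 for Igf1r (muscle against periosteum, muscle against marrow, periosteum against marrow). For Igf2r they were 0.27, 0.77 and 0.50, each ± 0.69. Per kilobase Igf1r was below Igf2r in 25 of 27 libraries, the exceptions being periosteum P3 replicate 2 at a ratio of 27.95 and bone marrow P2 replicate 1 at 2.03.

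Together the tissues differed in which binding protein made up most of the pool. As a share of the summed Igfbp2 to Igfbp7 level per kilobase, Igfbp6 was 69.7% ± 6.5 in muscle P1, 70.3% ± 6.7 in muscle P2 and 57.3% ± 5.9 in muscle P3 (SD, n = 3). The corresponding periosteum groups had 61.1% ± 9.0, 61.3% ± 18.9 and 49.2% ± 3.2. In bone marrow Igfbp4 took 47.9% ± 8.3 in P1, 65.2% ± 2.2 in P2 and 52.0% ± 9.0 in P3, and Igfbp6 at most 1.96% on average. Igfbp5 had its largest shares in marrow P1, at 31.2% ± 6.2, and marrow P3, at 27.3% ± 3.9. The Igfbp4 level itself was not past the test between tissues, at log2 fold changes of 0.78 ± 0.40 for muscle (adjusted p = 0.16) and 0.02 ± 0.40 for periosteum (adjusted p = 0.97) against marrow. The shares weigh each gene by its exon length and carry no test.

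**Figure D3:**
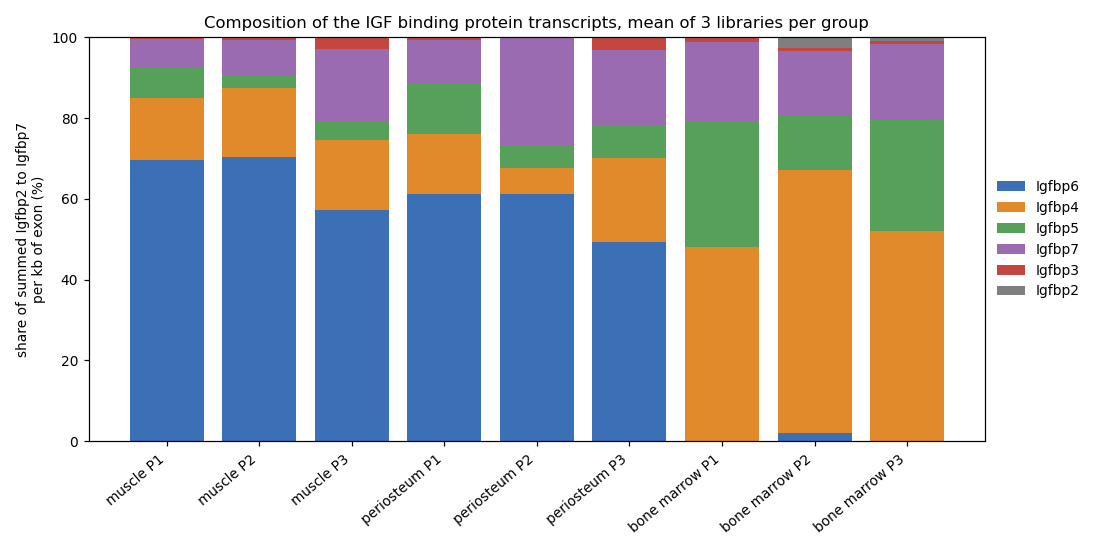
Mean share (%) of each gene in the summed Igfbp2 to Igfbp7 normalized count per kilobase of exon, for the 9 groups with 3 libraries each. Igfbp6 takes 49.2 to 70.3% in muscle and periosteum groups, and Igfbp4 takes 47.9 to 65.2% in bone marrow groups.

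The subpopulations were compared next, P1 as the proposed stem cell fraction against the mean of P2 and P3. Over all tissues 2 members were higher in P1 and none lower, where 14.5% of all genes were called (6.88% higher). Igfbp5 was higher by 2.28 ± 0.43 (adjusted p = 0.00047) and Igf2 by 1.82 ± 0.39 (adjusted p = 0.0016). Igfbp4 reached an adjusted p of 0.0070 but a change of 1.36 ± 0.35, under the fold threshold. The members' median was 1.25, against -0.12 for all genes.

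Igfbp5 had 9558, 12039 and 9908 normalized counts in muscle P1, 1101, 2840.2 and 1522 in muscle P2, and 3036, 3924 and 2913 in muscle P3. In periosteum it had 27168, 8423 and 8523 in P1, 8456, 131 and 1642 in P2, and 7717, 6666 and 7286 in P3. Bone marrow libraries held 13254, 5637 and 15166 in P1, 411, 449.6 and 244 in P2, and 19938, 5487 and 5008 in P3. P1 lay above both other fractions without overlap in muscle and above P3 in periosteum, where 1 P2 library reached it, and within the range of P3 in marrow. The change was 2.16 ± 0.75 in muscle (adjusted p = 0.22), 2.07 ± 0.75 in periosteum (adjusted p = 0.081) and 2.61 ± 0.75 in marrow, where it was called (adjusted p = 0.015). That marrow call ended without bone marrow P1 replicate 1 (2.44, adjusted p = 0.072) or replicate 3 (2.34, adjusted p = 0.082).

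By tissue, no member was called in muscle by limma, where 1.05% of all genes were called and Igfbp5 alone had an unadjusted p under 0.05. Igfbp5 was called there in 2 other settings. These were the muscle groups fitted alone (2.16, adjusted p = 0.0042) and the fit without periosteum P2 replicate 2 (adjusted p = 0.020). In periosteum Igf2 was called, higher by 4.03 ± 0.67 (adjusted p = 0.00027), against 9.16% of all genes (4.32% higher), and by 3.21 without periosteum P1 replicate 1 (adjusted p = 0.0059). Bone marrow gave 3 calls, all higher in P1, against 18.9% of all genes (7.48% higher). Besides Igfbp5 these were Igfbp3 (2.54 ± 0.84, adjusted p = 0.033) and Igfbp7 (1.92 ± 0.68, adjusted p = 0.048). Leaving out 1 library ended the Igfbp3 call in 6 of 27 cases and the Igfbp7 call in 18 of 27, with a lowest value for Igfbp7 of 0.93. With equal totals per library all 3 calls ended (adjusted p = 0.063 for Igfbp5, 0.080 for Igfbp3 and 0.13 for Igfbp7).

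The P1 calls did not hold without P2. When P1 was set against P3 alone, an alternative chosen after the data were seen, no member was called in any tissue or over all of them. Igf2 then differed by 0.32 over all tissues (adjusted p = 0.67) and by 1.47 in periosteum (adjusted p = 0.21). Igfbp5 differed by 0.94 over all tissues (adjusted p = 0.045) and Igfbp6 by 1.23 (adjusted p = 0.042), both under the fold threshold. In marrow the values of Igfbp3, Igfbp5 and Igfbp7 were 0.66, 0.35 and 0.12. The P2 fractions are those with the most globin transcripts in periosteum and marrow and with the myofibre transcripts in muscle. Of the 9 groups, periosteum P2 also had the highest mean log2 level of chondrocyte markers, at 14.02. Marrow P2 had that of leukocyte markers, at 11.06. What these transcripts contribute to the lower IGF levels in P2 was not tested.

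The P1 change of Igf2 differed between tissues. It was -0.02 ± 0.67 in muscle and 4.03 in periosteum, a difference of -4.05 ± 0.95 (adjusted p = 0.020), and it was the only member called in the 3 differences between tissues, with 2.44% of all genes called in this one (0.878% lower). In muscle the highest Igf2 values were in P3 and in periosteum in P1, and periosteum P2 held at most 26.2 normalized counts in any library. The difference was not past the test without muscle P1 replicate 1 (-3.66, adjusted p = 0.088), without periosteum P1 replicate 1 (-3.23, adjusted p = 0.079) or without P2 (-2.74, adjusted p = 0.25). For muscle against marrow none of the members was called by limma in this difference (7.41% of all genes), with Igfbp3 alone under an unadjusted p of 0.05. For periosteum against marrow none was called either (2.8% of all genes), with Igf2 and Igfbp2 under an unadjusted p of 0.05.

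**Figure D4:**
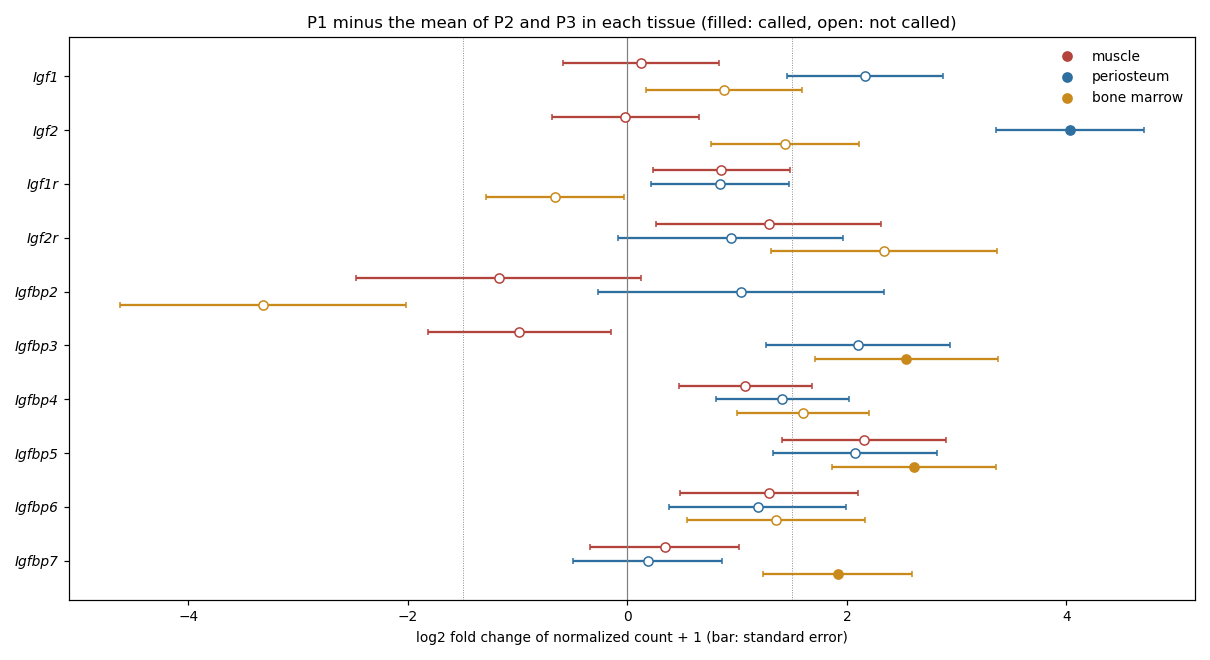
Log2 fold change of the normalized count + 1 for P1 minus the mean of P2 and P3 in each tissue with its standard error (filled points called, open points not). Igf2 lies at 4.03 in periosteum and at -0.02 in muscle, and Igfbp5 between 2.07 and 2.61 in all 3 tissues.

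The CD105- CD200- cells (P2) and the CD105+ cells (P3) were compared within each tissue. All called members were higher in P3, with 1 in muscle (against 11.2% of all genes, 5.61% higher), 5 in periosteum (17.1%, 9.33% higher) and 4 in bone marrow (20%, 5.38% higher). The members' median log2 fold change was 1.16, 2.49 and 1.92 in the 3 tissues, with medians over all genes of 0.48, 0 and -0.48.

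Igfbp3 had the widest gap of the members in periosteum. There it had 3.30, 5.08 and 5.97 normalized counts in P2 and 2741, 901 and 606 in P3, a log2 fold change of 7.66 ± 0.96 (adjusted p = 7.3e-06). In bone marrow the values were 2.95, 33.0 and 4.57 against 525, 83.0 and 40.6, a change of 3.76 ± 0.96 (adjusted p = 0.0082). In muscle they were 266, 279 and 141 against 978, 1102 and 1037, a change of 2.24 ± 0.96 that did not pass (adjusted p = 0.15). The muscle change was called by limma with the groups fitted alone (adjusted p = 0.0046) and with equal totals (2.97, adjusted p = 0.039). It was also called with equal totals without globins (2.96, adjusted p = 0.043). The P3 libraries lay above the P2 libraries of the same tissue throughout, by the least in marrow, where the call ended without P3 replicate 1 (2.70, adjusted p = 0.069) and in a fit of these groups alone (adjusted p = 0.066). The mean level of the 10 endothelial markers was also highest in P3 of each tissue, at log2 levels of 11.27, 10.22 and 8.48 in muscle, periosteum and marrow against 7.17, 3.85 and 5.45 in P2. Vwf, one of these markers, ran the other way in marrow, with means of 1608.5 normalized counts in P2 and 536.4 in P3. The part of the endothelial markers in the Igfbp3 difference was not tested.

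Igf2 was higher in P3 by 5.14 ± 0.78 in periosteum (adjusted p = 7.2e-05) and by 2.50 ± 0.78 in muscle (adjusted p = 0.035), with no overlap in either tissue. In marrow its change of 1.37 ± 0.78 did not pass (adjusted p = 0.22). The muscle call ended in 5 of the 27 cases with 1 library left out, each a P2 or P3 library of muscle (adjusted p up to 0.12).

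Igfbp4 had 3803, 294 and 1733 normalized counts in periosteum P2 and 11172, 20558 and 11229.9 in P3. In marrow it had 996, 2139 and 1100.0 in P2 and 26785, 6714 and 8235 in P3. Muscle showed no such gap, with 6323, 9742 and 6173 in P2 and 2714, 14465 and 12450.2 in P3. The change was 3.46 ± 0.70 in periosteum (adjusted p = 0.0015), 3.10 ± 0.70 in marrow (adjusted p = 0.0031) and 0.12 ± 0.70 in muscle (adjusted p = 0.95). The marrow change of Igfbp4 was 2.48 without P3 replicate 1 (adjusted p = 0.028). Whether the tissues differ in this change was not tested.

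In marrow Igfbp5 was higher in P3 by 4.52 ± 0.86 (adjusted p = 0.00073) and Igfbp7 by 3.59 ± 0.78 (adjusted p = 0.0024), with all 3 libraries of P3 above those of P2. Without bone marrow P3 replicate 1 these changes were 3.88 (adjusted p = 0.0080) and 2.40 (adjusted p = 0.025). In periosteum Igfbp5 (2.56 ± 0.86, adjusted p = 0.042) and Igf1 (2.49 ± 0.82, adjusted p = 0.038) were called only with periosteum P2 replicate 2 in the fit, which held 131 of Igfbp5 and 105 of Igf1. Without it their changes were 0.95 (adjusted p = 0.32) and 1.23 (adjusted p = 0.25). The Igf1 call also ended without periosteum P3 replicate 1 (2.32, adjusted p = 0.096) or replicate 3 (2.26, adjusted p = 0.098), and the Igfbp5 call in 9 of 27 cases. Fitted on these 2 groups alone, none of the 5 periosteum calls held (Igf2 adjusted p = 0.057, Igfbp3 0.067, Igfbp4 0.25, Igf1 0.43, Igfbp5 0.52).

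**Figure D5:**
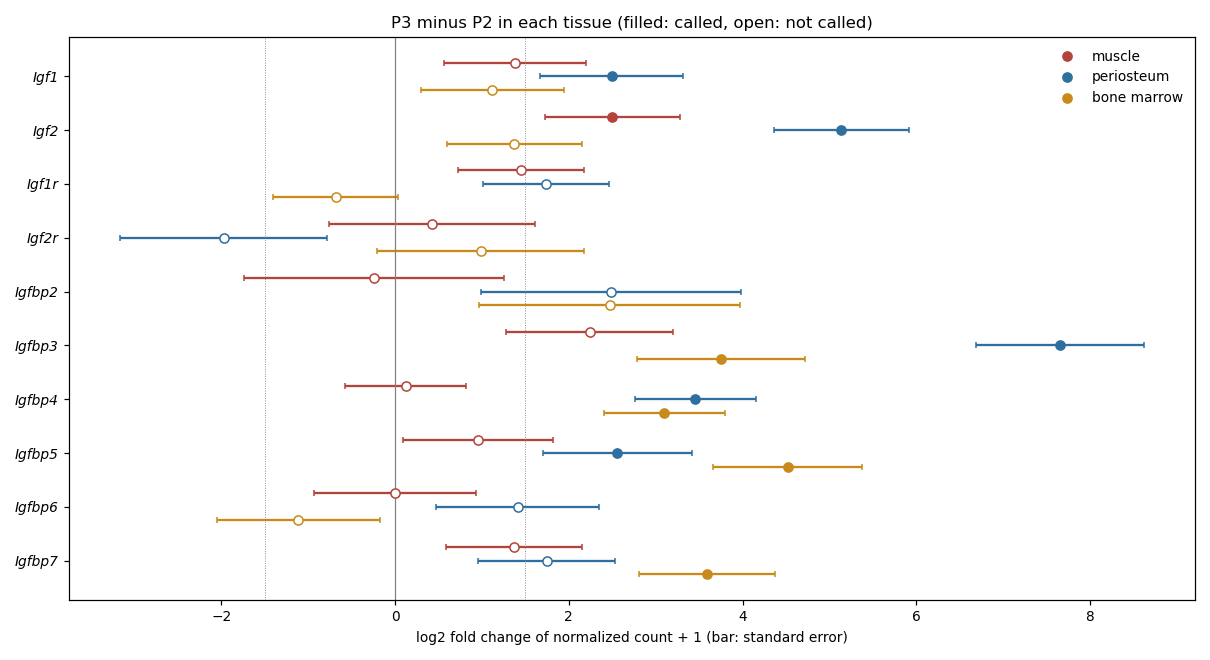
Log2 fold change of the normalized count + 1 for P3 minus P2 in each tissue with its standard error (filled points called, open points not). Igfbp3 is at 7.66 in periosteum, Igfbp5 at 4.52 in bone marrow, and Igfbp4 near 0 in muscle.

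Within P1 cells alone, fewer members were called between tissues than in the averages over P1, P2 and P3. The share of all genes called was lower too. These contrasts hold fewer libraries and had larger standard errors. Between muscle and periosteum no member was called by limma (4.9% of all genes), with Igf2 alone under an unadjusted p of 0.05 (-2.52 ± 0.78, adjusted p = 0.061). Muscle against marrow gave 1 call, Igfbp6, at 10.92 ± 0.94 (adjusted p = 3.3e-08), where 8.34% of all genes were called (5.4% higher). Igf1 did not pass there (2.23 ± 0.82, adjusted p = 0.10), though the P1 libraries of muscle and marrow did not overlap. It was called in 4 other settings, among them equal totals (2.91, adjusted p = 0.035) and the groups fitted alone (adjusted p = 0.020). Periosteum against marrow gave 3, all higher in periosteum, where 4.87% of all genes were called (1.91% higher): Igfbp6 at 10.23 ± 0.94 (adjusted p = 1.8e-07), Igf2 at 3.78 ± 0.78 (adjusted p = 0.0040) and Igf1 at 3.32 ± 0.82 (adjusted p = 0.016). The Igf1 call ended without periosteum P1 replicate 1 (2.83, adjusted p = 0.096) or bone marrow P1 replicate 2 (2.91, adjusted p = 0.096). Igf2 stayed called without periosteum P1 replicate 1, at 2.96 (adjusted p = 0.038). In a fit of these groups alone neither ligand passed (adjusted p = 0.055 for Igf1 and 0.089 for Igf2). Igfbp4 and Igfbp5 were not past the test between the P1 cells of any tissues, with group means of 12276 to 15951 and of 10502 to 14705 normalized counts. Their log2 differences between tissues were at most 0.53 ± 0.70 and 0.26 ± 0.86 in size.

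Of 36 other genes of IGF signalling, 33 were tested. Against bone marrow, 2 were higher and 3 lower in muscle, and 3 higher and 7 lower in periosteum, while muscle and periosteum differed in 1 gene each way. Of all genes 21.7%, 20.8% and 20.4% were called in these 3 comparisons. Proteases of the binding proteins and their inhibitors were among those called. Pappa, the protease that cleaves Igfbp4, was lower than in bone marrow by a log2 fold change of -4.09 ± 0.68 in muscle (adjusted p = 5.8e-05) and -2.81 ± 0.68 in periosteum (adjusted p = 0.0039). Its normalized counts were 1351, 394 and 1846 in marrow P1 against 56.7, 31.7 and 8.51 in muscle P1. Stc2, an inhibitor of PAPP-A, was higher in periosteum than in marrow by 3.49 ± 0.71 (adjusted p = 0.00082) and lower in muscle than in periosteum by -2.66 ± 0.71 (adjusted p = 0.0081). Htra1, a secreted serine protease that can cleave IGF binding proteins, was higher than in marrow by 1.81 ± 0.50 in muscle (adjusted p = 0.0077) and 2.40 ± 0.50 in periosteum (adjusted p = 0.0010). Its gap was widest in P2, with 86.65, 34.2 and 24.1 in marrow against 2015, 541 and 440 in muscle. Periosteum P2 held 1518, 6266 and 4393 of Htra1. In P1 and in P3 the libraries of both tissues overlapped those of marrow. Ghr, the growth hormone receptor, which drives Igf1 in liver, was higher in muscle than in periosteum by 2.28 ± 0.59 (adjusted p = 0.0067). The gap in Ghr lay in P2, with 1564, 2871 and 2910 normalized counts in muscle against 406, 4.54 and 2.96 in periosteum. In P1 and in P3 the libraries of muscle and periosteum overlapped. Igfals, the partner of Igfbp3 in serum, was lower in periosteum than in marrow (-2.70 ± 0.78, adjusted p = 0.014) but was at most 99.4 in any library.

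Genes that act inside the cell were also among those called. Foxo3, a transcription factor held back by AKT, was lower in muscle than in marrow by -2.13 ± 0.60 (adjusted p = 0.0088). In P2 it had 49.0, 206 and 53.9 normalized counts in muscle and 1279, 2307.5 and 1160 in marrow. The gap was smaller in P1, at 142, 229 and 274 against 302, 305 and 575, and the P3 libraries overlapped. Grb10, an adaptor that restrains IGF1R, was higher in periosteum than in marrow by 1.99 ± 0.30 (adjusted p = 3.4e-05). Of other genes with high mean levels, Pik3r1, Shc1 and Akt2, none was called between tissues. In the P1 comparison over all tissues, Stc2 (2.56 ± 0.61, adjusted p = 0.0041) and Htra1 (1.94 ± 0.43, adjusted p = 0.0022) were higher and Pik3cb, a catalytic subunit of PI3K, was lower (-2.56 ± 0.50, adjusted p = 0.00058). None was called in muscle or in periosteum for P1, and 3 were higher and 2 lower in marrow, where 1.05%, 9.16% and 18.9% of all genes were called in the 3 tissues and 14.5% over all of them. For P3 against P2, 2 were higher and 1 lower in muscle, 5 and 4 in periosteum, and 4 and 2 in marrow, against 11.2%, 17.1% and 20% of all genes.

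The genes most like each member over the 9 group means were found by Pearson's r among all 18442 genes. Igfbp6 was closest to Nov at 0.995, S100a6 at 0.992 and Myoc at 0.989. Nov had group means of at most 4.14 normalized counts in marrow and of 1154 to 2994.5 elsewhere, and Myoc of at most 10.4 against 1662 to 3325, the same gap between tissues as Igfbp6. Igf1 was closest to Cd151 at 0.989, Igf2 to Ier5l at 0.98 and Igfbp3 to Plscr4 at 0.987. For Igfbp4 it was Ap3b1 at 0.978, for Igfbp5 Pigs at 0.969 and for Igfbp7 Prkcdbp at 0.976. For Igf1r it was Fam69b at 0.961, for Igf2r Lclat1 at 0.941 and for Igfbp2 Tcte3 at 0.965. Among the members, the pairs with the highest r were Igf1 with Igf2 at 0.917 and Igfbp4 with Igfbp5 at 0.895. With 9 points that share libraries and many genes searched, these values are descriptive.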

How the data were processed

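RNA of Prx1-tdTomato cells sorted without CD45 as P1, P2 and P3 from muscle, periosteum and bone marrow was measured in 27 libraries made with SMART-Seq v4 and Nextera XT kits. The authors trimmed the reads with Trim Galore, aligned them with STAR and handled the counts with DESeq2, and deposited normalized counts, a signal per gene and library with no raw counts. The genome build, annotation and counting tool are not given in the sources used here. In a library 20.7 to 90.5% of low values fitted whole multiples of a common step (tolerance 0.05), so whole reads were not recovered and no counting interval is given.

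Of 30154 entries, 1 without a gene identifier was left out, and 11711 of the others did not reach a value of 10 in 3 libraries. Tests used limma 3.58.1 in R 4.3.3 (lmFit, contrasts.fit and trended eBayes) on the log2 of the normalized count + 1, with 9 group means and Benjamini-Hochberg adjustment over 18442 genes. Changes with an adjusted p under 0.05 and a log2 fold change over 1.5 in size were called. The fit was tested on simulated data. Other values used Python 3.11.15, numpy 2.4.6, pandas 2.3.3 and matplotlib 3.10.9. Levels between genes were divided by the exon length in GENCODE M21, in which 29811 identifiers were found. Promoter windows are RefSeq sequences, 14 windows for the 10 members.

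Named were all members and the sorting markers, then of the other IGF pathway genes the 5 with the highest mean level and the 2 largest called changes each way between tissues and for P1 over all tissues, and for each member the genes most like it. One result that this rule names is not reported here. H19 of the pathway list was not found in the table under its symbol. Members, lists and tests were chosen with earlier results of these data known. Alternatives were pseudocounts of 0.1 and 5, no filter or a mean of at least 50, no fold threshold, eBayes without trend, a block for the replicate number, equal totals with and without globins, quantile normalization, groups fitted alone, each library left out and, added after the data were seen, P1 and P3 alone.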

Additional observations from a re-analysis of the deposited data

Results flagged for a closer look

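The change of Igf2 in P1 against the mean of P2 and P3 differed between muscle and periosteum by -4.05 on the log2 scale (SE 0.95, adjusted p from limma 0.020), which was tested as a difference of differences over the 18 libraries of the 2 tissues within the fit of all 27. Igf2 in P1 was higher than in P2 for every periosteum library, by at least the step from 26.2 to 769 normalized counts, whereas the muscle P1 libraries (209, 486 and 469.6) overlapped those of P2 (114, 115 and 277) and lay under those of P3 (1051, 682 and 936). No other member passed this test, and no sample of a group of 3 could be tested as standing apart.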

How the results depend on the processing

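Over 33 called changes of single members and 1236 values under other settings, 1108 kept their call, 127 lost it and 1 turned, and 12 of the 33 kept it in every setting: Igf1, Igf2 and Igfbp6 against bone marrow in muscle and in periosteum, Igfbp2 against bone marrow in muscle, Igfbp4, Igfbp5 and Igfbp7 for P3 against P2 in bone marrow, and Igfbp6 in P1 cells of muscle and of periosteum against bone marrow. The 1 that turned was Igfbp3 between muscle and periosteum, -0.328 with P1 and P3 alone. Of 127 changes not called, 22 gained a call under at least 1 setting that kept the fold threshold, among them Igfbp2 (lower) and Igfbp4 for P1 in bone marrow in 6 settings each.

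The counts of called members that moved by more than 1.5 times, or to or from 0, are these. Between muscle and periosteum it was 1 and fell to 0 with a pseudocount of 5, with no filter, with equal totals without globins, with quantile normalization and with P1 and P3 alone. For P1 it was 2 over all tissues and 0 with P1 and P3 alone. In periosteum it was 1, and 2 with a pseudocount of 5 or a mean of at least 50, and 0 with P1 and P3 alone. In marrow it was 3, and 0 with equal totals, 1 (lower) with equal totals without globins, 6 with quantile normalization and 0 with P1 and P3 alone. In muscle it was 0, and 1 with the groups fitted alone. For P3 against P2 it was 1 in muscle, and 2 with equal totals (with or without globins) or the groups alone. In periosteum it was 5, and 3 with no filter, 3 without a trend and 0 with the groups alone. In P1 cells it was 0 between muscle and periosteum, and 1 with a pseudocount of 5. Between muscle and marrow it was 1, and 2 with equal totals (with or without globins) and 3 with the groups alone, and between periosteum and marrow it was 3, and 1 with the groups alone. The difference of the P1 change gave 1 between muscle and periosteum, and 0 with P1 and P3 alone, and 0 between muscle and marrow, and 1 with quantile normalization or the groups alone. The causes were not tested.

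With 1 library left out, the count ranged from 0 to 1 between muscle and periosteum, 6 to 6 between muscle and marrow and 4 to 5 between periosteum and marrow. For P1 it ranged from 2 to 3 over all tissues, 0 to 1 in muscle, 1 to 4 in periosteum and 0 to 5 in marrow, and for P3 against P2 from 0 to 1, 3 to 6 and 3 to 4 in the same tissues. In P1 cells it ranged from 0 to 1, 1 to 2 and 2 to 3, and for the differences from 0 to 1, 0 to 1 and 0 to 0.

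Scaling moved the median over all genes, for P3 against P2 in bone marrow from -0.478 as deposited to 0.53 with equal totals, and the share of called genes that were higher from 26.9 to 65.4%. Between muscle and periosteum that share was 84.4% as deposited and 49.3% with quantile normalization, and between periosteum and marrow 19.3 and 50.1%. For P1 in marrow it was 39.5% as deposited and 17.3 to 51.8% with other scalings. The largest moves elsewhere, from the deposited scale, were from 47.3 to 33% for P1 over all tissues, 56.5 to 71.6% for P1 in muscle, 47.2 to 36.6% for P1 in periosteum, 50.3 to 75.5% for P3 against P2 in muscle and 54.5 to 78.9% in periosteum. In P1 cells they were from 88.6 to 66.6% (muscle and periosteum), 64.8 to 80.4% (muscle and marrow) and 39.3 to 59.3% (periosteum and marrow), and for the differences of the P1 change from 64 to 84.2%, 56.2 to 88.6% and 44.8 to 72.7% in the same order.

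The replicate block changed no count of called members, and of single calls it ended that of Igfbp7 for P1 in marrow (adjusted p = 0.0592) and gave one for Igfbp2 there (-3.32, adjusted p = 0.039). Libraries with the same number did not deviate together (mean r 0.000242, from -0.11 to 0.0789 over 108 pairs, and 10 of 27 libraries closest to their own number), so the number was not taken as a pairing. The fit on the groups alone was not run where a comparison already held all 9 groups, and Igfbp2 has no value with a mean of at least 50. The raw depth is unknown, and values of a few normalized counts, as for Igfbp2 and for Igfbp6 in marrow, are imprecise.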

Other observations

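Insr, the insulin receptor, which can pair with IGF1R, was chosen after its values were seen. Its normalized counts in periosteum were 673, 209 and 96.4 in P2 and 2194, 2425 and 1175 in P3, and in muscle 807, 179.5 and 116 in P2 and 1277, 886 and 1513 in P3. In bone marrow it had 336, 382 and 352 in P2 and 1362, 702 and 958 in P3. No P3 library overlapped P2 of the same tissue in any of the tissues. The log2 fold change of P3 against P2 by limma was 2.94 ± 0.71 in periosteum (adjusted p = 0.0064) and 2.22 ± 0.71 in muscle (adjusted p = 0.042). Of all genes 17.1% were called in this comparison in periosteum and 11.2% in muscle. Neither Igf1r nor Igf2r passed the test of P3 against P2 in any tissue. Grb10, the adaptor that restrains IGF1R, was higher in P1 than in P2 and P3 of bone marrow by 3.17 ± 0.45 (adjusted p = 1.8e-05), with 1797, 1902 and 2045 normalized counts in P1, 37.6, 87.3 and 222 in P2 and 1073, 299.6 and 370.3 in P3. The difference of this change was -2.85 ± 0.64 for muscle minus bone marrow (adjusted p = 0.0063) and -2.48 ± 0.64 for periosteum minus bone marrow (adjusted p = 0.036).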
